A study of Homo sapiens with 2 samples.

Results

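Metallothioneins are described here in TE-1 cells, an established human oesophageal cancer line, transfected with the vector PCDNA3.1 carrying PAX2 or with PCDNA3.1 alone. Every array feature that the array's annotation names MT1A, MT1E, MT1F, MT1G, MT1H, MT1M, MT1X, MT2A, MT3 or MT4 was taken, which gave 19 of the 45033 features, for all 10 genes. Total RNA was taken 24 h after transfection and labelled with Cy3, and 1 NimbleGen array was hybridised per group, so the differences below have neither a replicate check nor a p-value, and their precision is limited by the number of arrays. Both groups share the cell line, the vector backbone and the culture medium, and the labels do not say what share of cells took up the vector.

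Metallothioneins are small, cysteine-rich proteins that bind zinc, copper and cadmium and buffer the free zinc of the cell. Their genes are switched on by zinc and cadmium through MTF1, a zinc-sensing transcription factor that binds short metal response elements before the genes, and in several members also by glucocorticoids and oxidative stress. MT1 and MT2 genes are used in many tissues, MT3 mainly in the brain, and MT4 in stratified squamous epithelium such as that of the skin and the oral cavity.

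Promoter sequences are given below for some of the members, with and without signal on the arrays. RefSeq windows were at hand for 4 of the 10 members (build GRCh38.p14, all on the plus strand): MT2A (chr16:56608334-56608583), MT1H (chr16:56669564-56669813) and MT1X (chr16:56682220-56682469), which had signal on both arrays, and MT4 (chr16:56564823-56565072), which had none above the silent range, set on each array at the 95th percentile of 401 olfactory receptor features, whose genes are mostly off in epithelial cells (log2 7.08 on the empty-vector array and 7.14 on the PAX2-labelled array). Each is given 5′ to 3′ as the 250 bases before the annotated start, with matches to the core of the metal response element in capitals.
MT2A: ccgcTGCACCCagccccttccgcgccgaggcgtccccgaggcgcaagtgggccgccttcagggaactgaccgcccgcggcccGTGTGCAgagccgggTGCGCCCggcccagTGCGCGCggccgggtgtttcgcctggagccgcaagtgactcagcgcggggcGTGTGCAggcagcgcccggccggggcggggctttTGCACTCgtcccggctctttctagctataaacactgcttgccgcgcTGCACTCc
MT1H: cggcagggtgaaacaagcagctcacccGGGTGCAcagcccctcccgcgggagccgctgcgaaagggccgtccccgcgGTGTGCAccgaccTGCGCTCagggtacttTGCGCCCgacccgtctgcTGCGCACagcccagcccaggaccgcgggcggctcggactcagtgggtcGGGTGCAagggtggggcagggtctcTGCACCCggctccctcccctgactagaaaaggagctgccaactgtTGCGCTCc
MT1X: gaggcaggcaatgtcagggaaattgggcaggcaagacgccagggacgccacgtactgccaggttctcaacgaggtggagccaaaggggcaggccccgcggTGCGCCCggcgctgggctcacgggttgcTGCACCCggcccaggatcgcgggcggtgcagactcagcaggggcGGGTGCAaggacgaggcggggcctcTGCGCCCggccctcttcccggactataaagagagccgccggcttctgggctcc
MT4: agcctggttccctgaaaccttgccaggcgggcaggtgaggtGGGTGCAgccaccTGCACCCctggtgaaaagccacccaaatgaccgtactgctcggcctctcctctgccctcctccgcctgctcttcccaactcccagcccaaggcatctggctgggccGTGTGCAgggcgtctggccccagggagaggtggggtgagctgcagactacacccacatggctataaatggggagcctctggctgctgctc
The core was searched as TGCACNC and TGCGCNC on both strands, and matches on the opposite strand read as their reverse complement. MT2A held 7 matches, MT1H 8, MT1X 4 and MT4 3. Among 35116 RefSeq promoter windows of the same length, 24.8% held at least 1 match, and 11 windows (0.0313%) held at least as many as MT2A, 6 (0.0171%) at least as many as MT1H, 130 (0.370%) at least as many as MT1X and 555 (1.58%) at least as many as MT4, these genes included. MT2A, MT1X and MT4 also held TATAAA within 30 bases of the start, a motif found anywhere in 10.7% of the windows. GGGCGG, the core of the GC box, had 2 matches in MT2A, 2 in MT1X, 1 in MT1H and 0 in MT4, and at least 1 in 42.6% of all windows. Of the GC box matches 1, in MT1X, overlaps a metal response element match. These letters describe the windows and do not show that a factor was bound.

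PAX2, the transfected gene, was not brighter on the array labelled for it. Its only feature (NM_000278) gave an intensity of 22.2 on the empty-vector array and 22.1 on the second, close to the random-sequence probes (20.6 and 19.3). The array therefore does not check the label. Whether the vector carries the stretch that the probes read is not known here, and no reason for the near-equal values was tested. The second array is named after its label throughout. The median feature gave an intensity of 205 on the empty-vector array and 210 on the PAX2-labelled one. Of 11 squamous epithelial markers 5 were above the silent range on both arrays (KRT5, KRT6B, KRT14, KRT17 and SFN). KRT6A, KRT15, TP63, SOX2, DSG3 and DSC3 were within it. Of 5 fibroblast markers COL1A1 and PDGFRB were above it on both arrays. All 7 leukocyte and blood markers and all 4 endothelial markers were within it on both. The summed intensity of the squamous list was 38632 on the empty-vector array and 47541 on the PAX2-labelled one, and that of the fibroblast list 993 and 1364. SFN alone held 30484 and 37724 of the squamous sums and COL1A1 734 and 1012 of the fibroblast sums. Probes differ in how brightly they bind, so each sum mostly follows its brightest gene and is read only between the arrays. Of the 5 squamous markers above the silent range, KRT5, KRT14, KRT17 and SFN were higher on the PAX2-labelled array (log2 differences of 0.72, 0.17, 0.32 and 0.31). KRT6B was lower there (-0.38), but like PDGFRB it did not reach the brightness filter given below. Of the squamous markers within the silent range, KRT6A, KRT15 and DSG3 were lower and TP63, SOX2 and DSC3 higher, and no fold is drawn from them. The 2 features went opposite ways for KRT6A (-1.05 and 0.26), TP63 (-0.45 and 0.75) and SOX2 (-0.07 and 0.67). Both features of DSG3 were lower, and KRT15 and DSC3 had 1 feature each. The part of these differences in the results below was not tested.

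Most metallothionein features with signal were slightly lower on the PAX2-labelled array. A feature was called measured where the mean of its 2 log2 intensities reached the median of all features (7.67), which 14 of the 19 did. Of these 14 features 12 were below 0 and 2 above it, where a difference is the log2 intensity under the PAX2 label less that under the empty vector, and 46.8% of all 21841 measured features with a gene were below 0. The median difference was -0.34 (1.27-fold lower), against 0.02 over all measured features, and the range was -0.98 to 0.12. None of the 14 differed at least 2-fold as deposited, though 1 feature of MT1X did after each of the 3 rescalings given with that gene. Over all measured features, 0.705% were at least 2-fold lower and 1.05% at least 2-fold higher. Members share sequence, and where the 3 probes of each feature lie is not stated in the files. Whether a probe reads 1 gene or several near-identical copies cannot be told apart, so the 14 features are not 14 independent readings. Apart from the marker sums above, intensities of different features are not set against each other, since probes differ in how brightly they bind. In whole cultures, fewer cells using a gene and less RNA per cell cannot be told apart.

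**Figure D1:**
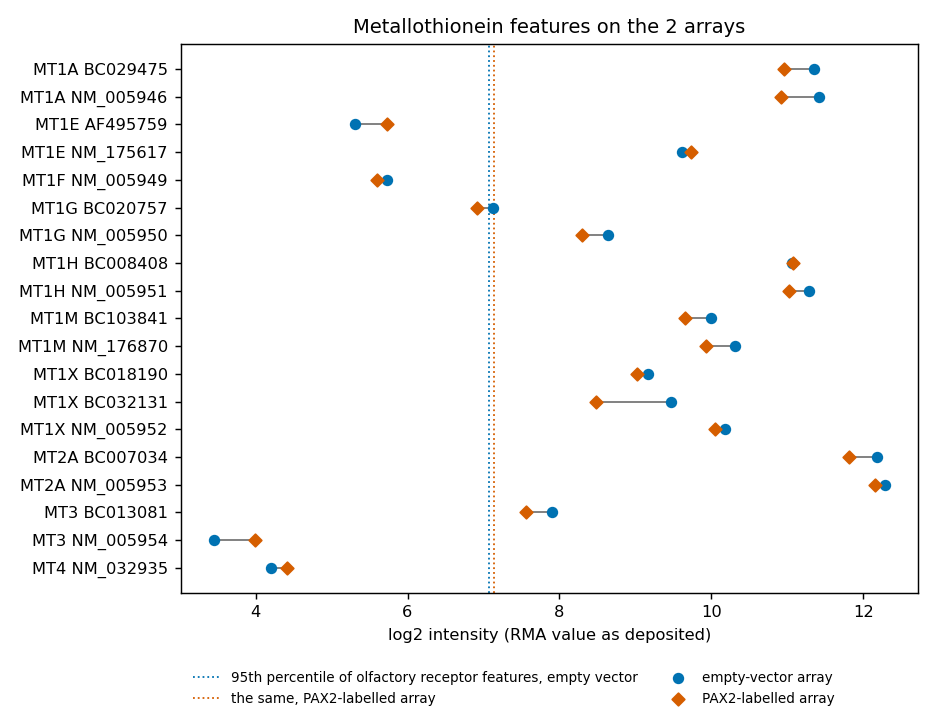
Log2 intensity of each of the 19 metallothionein features (1 row each, named by gene and array identifier) on the empty-vector array (circles) and the PAX2-labelled array (diamonds), with dotted lines at the 95th percentile of olfactory receptor features on each array. The diamond lies to the left of the circle in 12 of the 14 features that passed the brightness filter, and the widest gap is that of MT1X feature BC032131 (9.47 against 8.49).

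The size of these differences was read against features of like brightness. Over all features, the SD of the difference was 0.50 in decile 6 of brightness, 0.38 in decile 7, 0.32 in decile 8, 0.28 in decile 9 and 0.25 in decile 10. Of the 14 measured metallothionein features 6 were lower by more than 1 SD of their own brightness decile, against 10.1% of all measured features. Those 6 were both features of MT1A, both of MT1M, and 1 each of MT1X and MT2A. The other 8 lay within 1 SD of their decile. This SD holds real differences between the arrays as well as error, and holds no variation between cultures.

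In the top quartile of brightness 5 of 6 metallothionein features were below 0, against 47.8% of all features there, with a median of -0.32. In the next quartile 7 of 8 were below 0, against 45.8%, with a median of -0.34. Lower values were thus found at both levels of brightness.

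**Figure D2:**
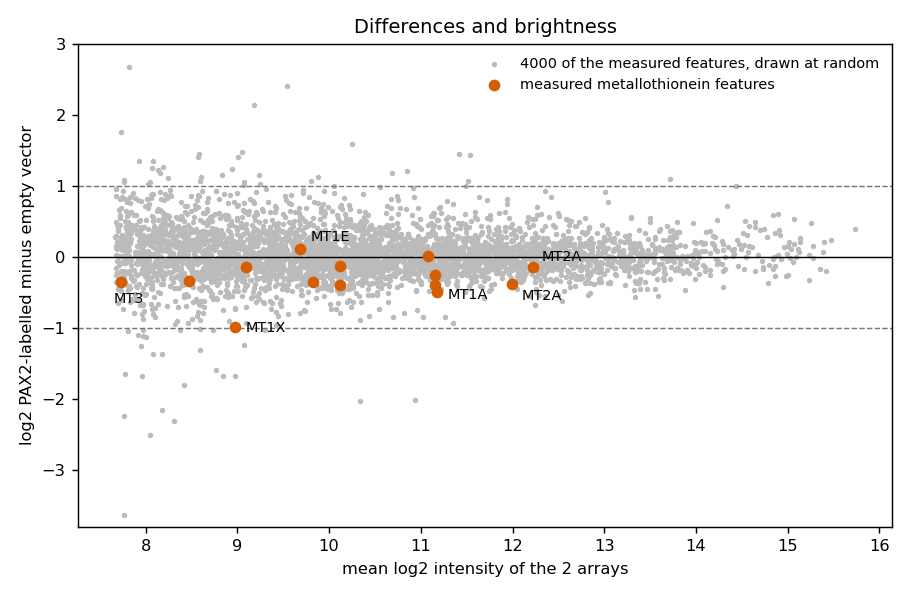
Difference (log2 PAX2-labelled minus empty vector) against mean log2 intensity for the 14 measured metallothionein features (large points) and 4000 measured features drawn at random (small points), with dashed lines at 2-fold. The metallothionein points lie between -0.98 and 0.12, 12 of them below 0 and none past the dashed lines as deposited; the lowest, of MT1X, passes them after rescaling (-1.01 to -1.03).

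MT2A, the main metallothionein of most human tissues and a classic target of both MTF1 and the glucocorticoid receptor, was bright on both arrays. Its feature NM_005953 (its transcript spans HG18 chromosome 16, 55200011 to 55200896, and positions below are on the same build and chromosome) gave an intensity of 4993 on the empty-vector array and 4546 on the PAX2-labelled one, a log2 difference of -0.14. Its feature BC007034 (55199996 to 55200909) had 4656 and 3591, a difference of -0.37. Both were lower on the PAX2-labelled array, and the second by 1.34 SD of its brightness decile.

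MT1A, an inducible MT1 gene, was lower by similar amounts in both features. Feature NM_005946 (55230078 to 55231500) had 2740 on the empty-vector array and 1943 on the PAX2-labelled one, 1.41-fold lower. Feature BC029475 (55230081 to 55231498) had 2603 and 1985, 1.31-fold lower. The differences of -0.50 and -0.39 were 1.77 and 1.40 times the SD of their brightness decile.

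MT1M, a further MT1 gene, was similar. Feature NM_176870 (55224072 to 55225394) had 1276 on the empty-vector array and 974 on the PAX2-labelled one, and BC103841 (55224089 to 55225307) had 1025 and 804. The features differed by -0.39 and -0.35, so both were about equally lower.

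MT1X, known for strong induction by metals, held the largest difference of the family and, among measured features, the widest disagreement between features of 1 gene. Feature BC032131 (55273893 to 55275608) gave an intensity of 708 on the empty-vector array and 359 on the PAX2-labelled one, 1.97-fold lower. Feature NM_005952 (55273895 to 55275609) had 1162 and 1063, and BC018190 (55273897 to 55275608) had 576 and 520, differences of only -0.13 and -0.15. The 3 features span almost the same stretch of the genome, all were lower, and 2 of them stayed within 0.41 SD of their brightness decile. BC032131 was just inside 2-fold at -0.98, and passed it after centring the arrays on their medians (-1.01), quantile normalization (-1.02) or loess (-1.03).

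MT1H and MT1G are neighbours in the cluster. MT1H feature NM_005951 (55261274 to 55262542) had 2487 on the empty-vector array and 2079 on the PAX2-labelled one, a difference of -0.26, while BC008408 (55261226 to 55262538) had 2147 and 2163. The difference of BC008408, 0.01 as deposited, turned to -0.02 after centring, -0.006 after quantile normalization and -0.007 after loess. MT1H was thus lower in 1 feature and level in the other. MT1G feature NM_005950 (55258153 to 55259478) had 399 and 315, a difference of -0.34 within 1 SD of its brightness decile. The second MT1G feature, BC020757, did not pass the filter and had 140 and 121, which was above the silent range on the empty-vector array and below it on the PAX2-labelled one, so that no fold is given.

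MT1E had the only measured feature that stayed above 0 after rescaling, though its difference was small. Its measured feature NM_175617 (55217218 to 55218525) gave an intensity of 787 on the empty-vector array and 854 on the PAX2-labelled one, 1.09-fold higher, and it stayed above 0 under centring (0.08), quantile normalization (0.07) and loess (0.08). The difference was 0.31 times the SD of its brightness decile, similar in size to the smaller differences of MT1X (-0.13 and -0.15). Its other feature, AF495759, had 39.7 and 53.1 and lay within the silent range on both arrays.

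Averaged per gene, 6 of the 10 members passed the filter: MT1A, MT1G, MT1H, MT1M, MT1X and MT2A. All 6 were below 0, from -0.44 for MT1A to -0.12 for MT1H, with a median of -0.32. MT1E (0.27) and MT3 (0.10) were above 0, but their means take in a dim feature and did not pass the filter. With the brightest feature of each gene instead, 7 of 8 measured members were below 0, all but MT1E. Over all 11232 measured genes 46.4% were below 0. The SD between measured features of the same member was 0.30 (5 genes, 11 features), and MT1X contributed most to it.

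The remaining members were dim. MT4 (NM_032935, 55156541 to 55160345), the member of squamous epithelium, had 18.4 and 21.2, near the random-sequence probes. MT1F (NM_005949, 55249355 to 55250713) had 53.2 and 48.4, also within the silent range on both arrays. MT3, the brain member, was split: NM_005954 had 10.9 and 15.96, within the silent range, while BC013081 (55180956 to 55182497) had 240 and 188, a difference of -0.35 just above the filter (mean log2 7.73), with the PAX2-labelled array alone below it (log2 7.56). Of the 5 features below the filter 2 were below 0 and 3 above, and no fold is drawn from them.

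The members lie in 1 run on chromosome 16, from the start of MT4 at 55156541 to the end of MT1X at 55275609 on HG18, 119 kb in all. Lower values were spread along it, from MT2A at 43.5 kb to MT1X at 117 kb after the start of MT4. MT1E at 60.7 kb was above 0 between MT2A and MT1M (67.5 kb). Of MT3, the feature at 24.4 kb, just above the filter, was lower. The MT3 feature at 24.2 kb, within the silent range, was higher. Other metallothionein genes of the run were measured in part. The transcribed pseudogenes MT1L (237 on the empty-vector array and 207 on the PAX2-labelled one) and MT1JP (1555 and 1501) had differences of -0.19 and -0.05. MT1B, MT1DP and MT1CP were within the silent range on both arrays, and MT1IP had no feature under that name. The pseudogene MT1XP1, which the array places on chromosome 1, had 228 and 270, a difference of 0.24.

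Genes on either side of the run lay on both sides of 0. Of 8 neighbours 5 were measured, 2 below 0 and 3 above, with a median of 0.03 and none 2-fold different, against 46.4% below 0, 0.65% up by 2-fold or more and 0.597% down by 2-fold or more over all measured genes. BBS2, a gene of the ciliary BBSome, differed most (-0.35, from -0.51 to -0.19 over its 2 features). OGFOD1, an oxygenase next to it, had 0.15, and the nucleoporin NUP93 on the other side had 0.34. With each feature taken singly, feature NM_138736 of GNAO1, a G protein subunit further away, was 2.56-fold higher (169 and 433). The other 2 GNAO1 features had 0.21 and 0.49 and were below the filter, as was the gene on average.

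**Figure D3:**
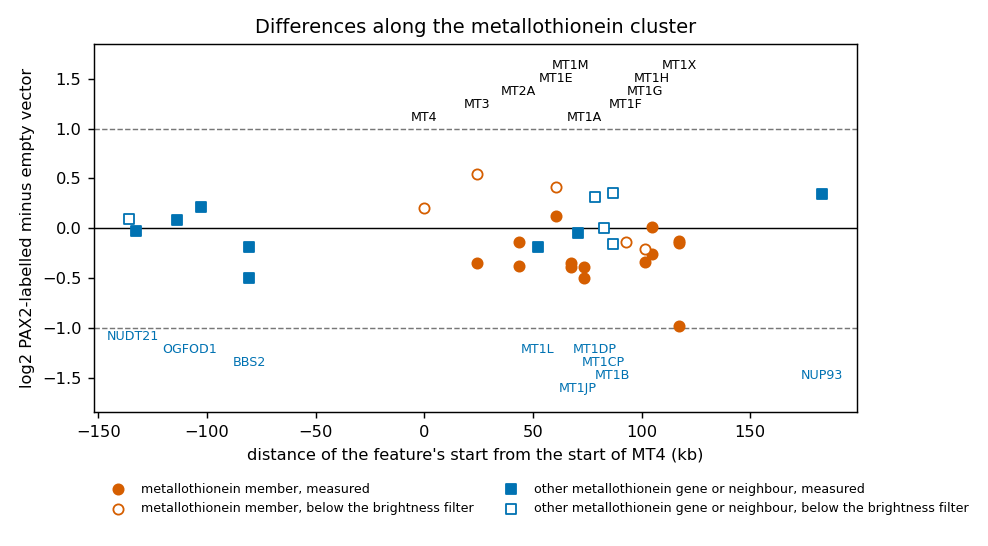
Difference (log2 PAX2-labelled minus empty vector) of each feature against the distance of its start from the start of MT4 in kb, for metallothionein members (circles) and other metallothionein genes and near neighbours (squares), filled where measured and open where below the brightness filter, with dashed lines at 2-fold. Filled circles lie below 0 except MT1E (0.12) and 1 feature of MT1H (0.01, below 0 after rescaling), while neighbours lie on both sides of 0; GNAO1, SLC12A3, HERPUD1 and CETP lie outside the plotted stretch.

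The regulators and partners of the family were mostly not lower. Of 25 genes of zinc handling (MTF1 and the SLC30 and SLC39 zinc transporters) 17 were measured, 13 above 0 and 4 below. Over all measured genes 53.6% were above 0. Among the 13 were SLC30A9 at 0.002 and SLC30A5, whose mean rests on a feature within the silent range, as given below. The median of the 17 was 0.14, and none differed 2-fold. Over all measured genes 0.65% were 2-fold higher or more and 0.597% 2-fold lower or more. MTF1 had a mean difference of 0.05, but its features went opposite ways: BC014454 had 2160 on the empty-vector array and 2847 on the PAX2-labelled one, and NM_005955 had 750 and 612.

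SLC30A1 exports zinc from the cell and is, like the metallothioneins, a known target of MTF1. Its 1 feature (NM_021194) gave an intensity of 276 on the empty-vector array and 431 on the PAX2-labelled one, 1.56-fold higher, the largest difference of the measured zinc genes. That was 1.28 SD of its brightness decile. The means of the 6 measured metallothionein genes were below 0, while the measured feature of MT1E (0.12) was, like SLC30A1, above 0. Whether MTF1 had a part in any of these differences was not tested. SLC30A3, a zinc transporter known from synaptic vesicles, held 1 feature past 2-fold (AK127300, 238 and 521), while its other 2 features had differences of 0.10 and 0.22. SLC30A5, also a zinc transporter, had a mean of 0.63 that came from feature BX537394 (23.3 and 91.3), within the silent range on both arrays, while its 2 measured features had -0.24 and 0.16.

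Of 8 copper handling genes 6 were measured, 4 above 0 and 2 below, against 53.6% above 0 over all measured genes. The median of the 6 was 0.10, and counts this small do not set the list apart. ATP7A, a copper-exporting ATPase, had the largest difference, with 191 on the empty-vector array and 288 on the PAX2-labelled one (1.51-fold higher, 1 feature). ATOX1, the copper chaperone that delivers to it, had -0.08.

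As means over their features, genes of the metal and oxidative stress response lay between -0.18 and 0.11, apart from HMOX1. All 12 on the array were measured, 8 above 0 and 4 below, against 53.6% above 0 over all measured genes. The median of the 12 was 0.06, and counts this small do not set the list apart. HMOX1, the haem oxygenase induced by cadmium and oxidants, had the largest difference: its features had 868 and 1406 (NM_002133) and 1085 and 1246 (BC001491) on the 2 arrays, empty vector first, 1.36-fold higher on average. The ferritin subunit FTH1 had 0.03, with its 3 features from -0.25 to 0.26. The cystine transporter SLC7A11 had -0.18, with its 3 features from -0.64 to 0.06. HSPA1B had no feature under that name.

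Of 7 glucocorticoid response genes 5 were measured, 4 above 0 and 1 below, with a median of 0.24. PER1, a clock gene with a strong glucocorticoid response, had 0.34, with its 3 features from -0.29 to 0.77. The phosphatase DUSP1 had 0.31 and the kinase SGK1 -0.12. None of the 5 differed 2-fold, and over all measured genes 53.6% were above 0, 0.65% up by 2-fold or more and 0.597% down by 2-fold or more, so counts this small do not set the list apart.

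**Figure D4:**
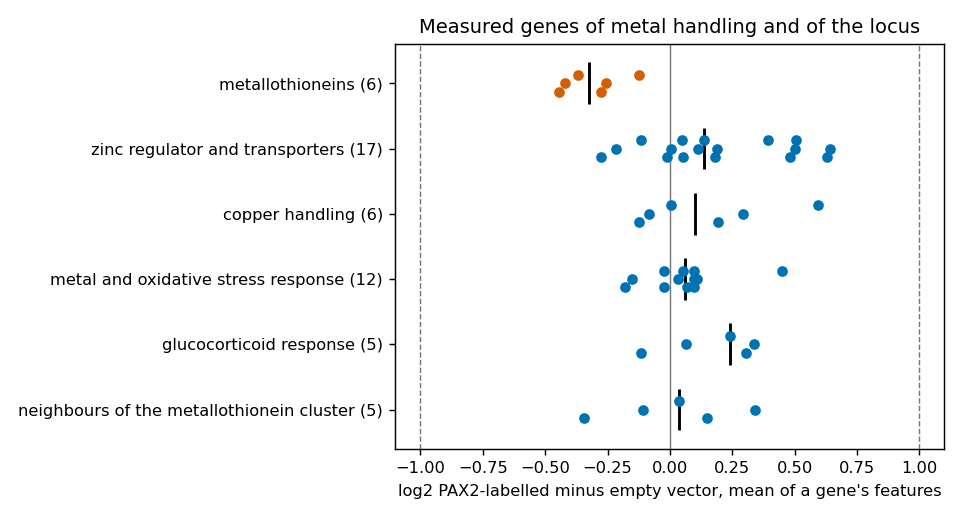
Difference (log2 PAX2-labelled minus empty vector, mean of the features of a gene) for the measured genes of each list, 1 point per gene, with a bar at the median, dashed lines at 2-fold and the number of genes in brackets. The 6 metallothionein genes lie between -0.44 and -0.12 with a median of -0.32, and the medians of the other 5 lists lie between 0.03 and 0.24. MT1E, whose measured feature was above 0, is not drawn, since its mean did not pass the filter.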

How the data were processed

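The 2 arrays were analysed, 1 per group. Per the file headers, the authors deposited 1 intensity per feature, summarised from 3 probes for 45031 of 45033 features, and per the submitters' processing notes the summary was RMA; the sources used here do not name its version or any scaling between the arrays. The intensity is on the linear scale. Gene names and HG18 positions come from the array's annotation, symbols were updated through the gene identifier to RefSeq (GRCh38.p14), and the 2086 features without a gene were left out of counts.

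Log2 of each intensity was taken with no pseudocount, and the difference computed per feature. A feature was measured where the mean over both arrays reached the median of all features, which 1 bright array can carry. Features of list genes were averaged. Spread was the SD of the difference over all features of the same brightness decile. A 2-fold threshold was used, with no test, since each group holds 1 array. All members were named, with PAX2, MTF1, SLC30A1, HMOX1, the metallothionein pseudogenes and per list the largest measured difference; further genes were named after their values were seen. One gene of the neighbour list is not reported here. The members and lists were chosen with earlier results of these data known. Alternatives were centring, quantile normalization, loess (fraction 0.3), the series table, an offset of 64, other filters, thresholds of 1.5-fold and 3-fold, and gene means or the brightest feature. The counting was tested on simulated data. Python 3.11.15, pandas 2.3.3 and statsmodels 0.14.6 were used.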

Additional observations from a re-analysis of the deposited data

How the results depend on the processing

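No paired analysis was possible because neither group has a second array. The metallothionein median of -0.34 was -0.38 after centring, -0.39 after quantile normalization or loess, -0.28 with an offset of 64, -0.32 with gene means or the 75th percentile filter, -0.30 for the brightest feature and -0.21 without a filter, which adds 5 dim features. The number of features at least 2-fold lower was 1 (MT1X) after centring, quantile normalization or loess and at 1.5-fold, and 0 otherwise. Zinc, copper, stress, glucocorticoid and neighbour genes at least 2-fold higher numbered 0 of 45, but 2 with each of 87 features counted (SLC30A3 and GNAO1), 1 with the brightest feature (GNAO1) and 3 at 1.5-fold (SLC30A1, ATP7A and, through a feature within the silent range, SLC30A5). Over all features the counts of 229 higher and 154 lower became 2033 and 2141 without a filter, 46 and 11 above the 75th percentile, 378 and 325 where 1 array sufficed, 1227 and 602 at 1.5-fold, and 27 and 52 at 3-fold; an offset of 64 gave 152 higher. These follow from the looser or stricter rule, or from damping of dim features by the offset. The series table holds the same values and centring shifts every feature alike. Of 57 single metallothionein values recomputed by quantile normalization, loess or the offset 57 moved by less than the SD of their brightness decile. Most of the differences were themselves smaller than that SD, so this count is no check of stability. MT3 feature NM_005954 went from 0.54 to 0.09 with the offset and still stayed within that limit. MT1H feature BC008408 turned sign under 3 settings. The share of all measured features below 0 was 46.8% as deposited and 52.2% after centring or quantile normalization, while 13 of 14 metallothionein features were below 0 under both. Low signal over background limits MT1F, MT4 and the dim features of MT1E, MT1G and MT3.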

Other observations

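Some further features carry the word metallothionein in the array's annotation; they were chosen after their values were seen. Feature AY077636, described as a zinc-induced hybrid of MT2A and MT1A and given no gene, had 3659 on the empty-vector array and 3279 on the PAX2-labelled one, a difference of -0.16, in the direction of the MT2A and MT1A features. For MT1HL1, a feature that the array places over MT1H (NM_001039954, 55261246 to 55262541) had 1376 and 1241, a difference of -0.15, while a dim feature placed on chromosome 1 had 93.2 and 165.

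TESMIN, once called MTL5 for its cysteine-rich stretches and known from the testis, is not counted among the metallothioneins and lies on chromosome 11. Its feature NM_001039656 gave an intensity of 759 on the empty-vector array and 251 on the PAX2-labelled one, 3.02-fold lower and 4.23 SD of its brightness decile. Its other 2 features were within the silent range on both arrays, so no second feature could check the difference.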
